A study of Mus musculus with 4 samples.

Results

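The RNAs described here carry the names of proteasome subunits and of proteasome activators and assembly factors. They are the 39 of 13318 RNAs in a table of RNA-RNA contacts whose name starts with Psma, Psmb, Psmc, Psmd or Psme and a digit, chosen by name alone. The contacts were measured by RIC-seq in spermatogonial stem cells of the mouse, which keep up their own number in the testis and from which sperm form. In this method RNA and protein are fixed together in cells, here with 1% formaldehyde for 10 min, RNA ends that lie close together are joined, and each joined (chimeric) read is counted for the pair of RNAs it holds. The control group was 2 libraries of cells tagged WT and the other group 2 libraries of cells whose genotype tag reads Differentiation. Strain, age, inducing agent and time in differentiation are not given in the sources used here. Nothing says that the 2 libraries of a group were separate cultures, and p-values therefore measure a spread between libraries that may be technical. Total counts were 1209031 and 1400011 in the control libraries against 793129 and 1155923 in the differentiation libraries.

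Of the 39 names, 37 belong to subunits or regulators of the proteasome, Psmb6-ps2 is annotated as a pseudogene and Psme2b as a protein-coding gene with the name of an activator subunit. A further 13 RefSeq symbols fit the name pattern and were not analysed here, among them Psma2, the immunoproteasome subunits Psmb8, Psmb9 and Psmb10, and the thymic subunit Psmb11. Each listed pair has at least 1 count in all 4 libraries, so a pair seen in only some libraries was not analysed here. A count of chimeric reads can move with the amount of an RNA as well as with its contacts, and fewer cells of a type cannot be told apart from less RNA per cell.

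The proteasome is the large protease that degrades proteins marked with ubiquitin. Its 20S core is a barrel of outer rings of alpha subunits and inner rings of beta subunits, which hold the cutting sites. The 19S cap on its ends binds ubiquitin, removes it and unfolds the substrate with a ring of ATPases, and activators such as PA28 and PA200 can take the place of the cap. In the testis, meiotic cells build a special core in which the alpha subunit PSMA8 takes the place of PSMA7.

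Proteasome RNAs took part in 156 listed pairs: 12 lay within a single RNA (within-RNA pairs) and 144 linked it to another RNA. These pairs held 2778 and 2880 counts in the control libraries against 2188 and 4057 in the differentiation libraries. As a share of all counts of a library this was 0.230% and 0.206% in the controls and 0.276% and 0.351% after differentiation. Both differentiation libraries lay above both controls (0.218% ± 0.0170 against 0.313% ± 0.0531, SD, n = 2 each), and an exact two-sided permutation test gave p = 0.33, the smallest that 2 libraries against 2 can give. Contacts were concentrated in a few pairs, the 10 largest of which held 64.3% of the counts.

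The contact total of an RNA, the sum of the counts of all its pairs, rose with differentiation for 4 proteasome RNAs and fell for none among 38 tested. The 4 were Psma8, an alpha subunit of the meiotic core, Psmb3, a beta subunit, Psmd2, a scaffold subunit of the 19S base, and Psmd14, the deubiquitinase of the 19S lid. Calls were made at an adjusted p under 0.05 in edgeR's quasi-likelihood test, adjusted over all 10993 RNAs tested; over all of these 5.44% rose and 6.75% fell (12.2% in either direction). The proteasome share called, 10.5%, lies near that background, so the number of calls is not a result about proteasome RNAs. The median log2 change of differentiation over control was 0.29 over the 38 RNAs and −0.00071 over all RNAs, with 29 changes above 0 and 9 below. At an unadjusted p under 0.05 there were 7 RNAs (27.0% over all RNAs), all higher, and DESeq2 called 4 higher and 0 lower. The 2 control values lay below the 2 differentiation values for 15 RNAs and above them for 4, where the shares over all RNAs were 26.1% and 29.1%. The 39th RNA, Psmd9, which encodes an assembly chaperone of the base, had 3, 5, 2 and 4 counts and was too low to test.

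**Figure D1:**
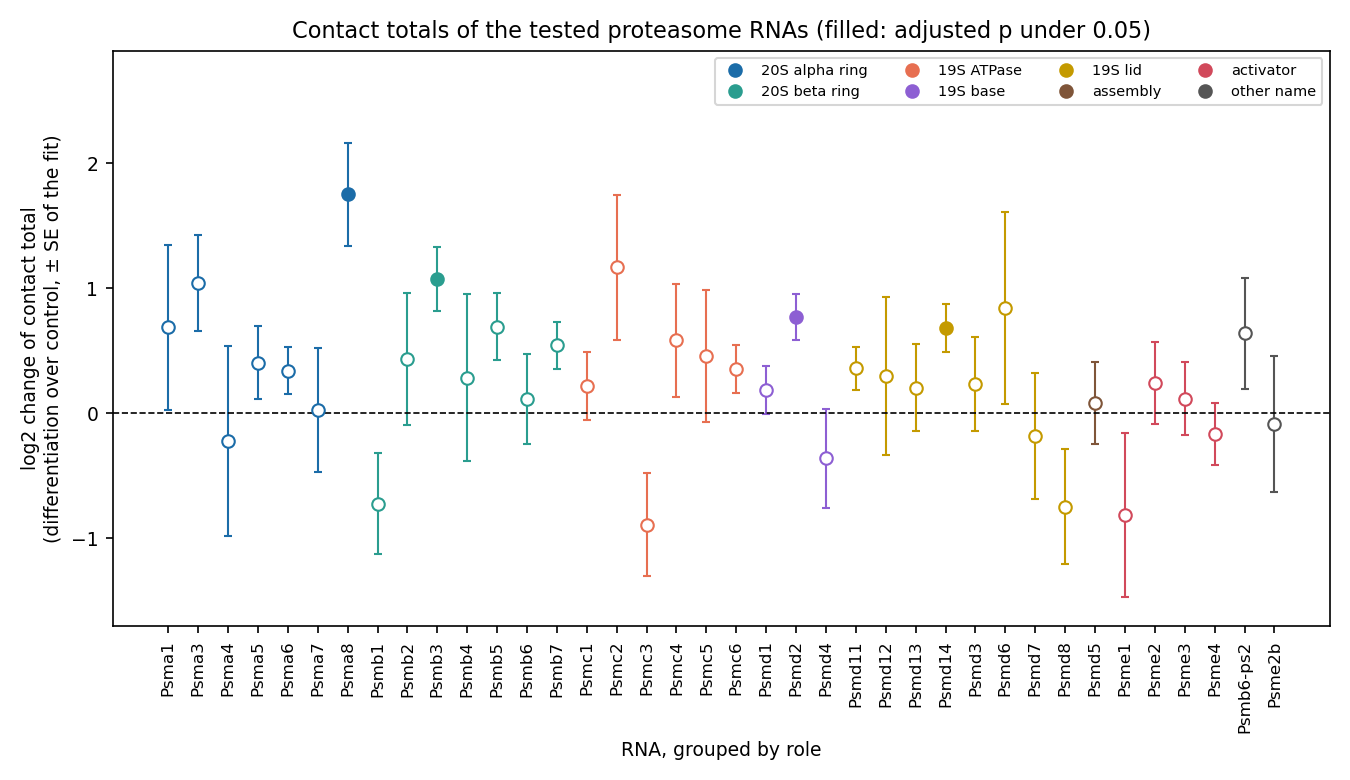
Log2 change of the contact total (differentiation over control, vertical axis, ± SE of the fit) for each of the 38 tested proteasome RNAs, grouped by role on the horizontal axis; filled points have an adjusted p under 0.05. Psma8, Psmb3, Psmd2 and Psmd14 are the filled points, and 9 points lie below 0.

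Leaving out 1 library changed the calls. Without control 1 or without control 2 no RNA of the whole table passed (0 of 11408 and 0 of 11434 tested), so the loss there is not particular to the proteasome RNAs, and the lone control was taken to vary as the other group does. The changes without control 1 and without control 2 were 1.71 and 1.77 for Psma8 (adjusted p = 0.311 and 0.413), 1.43 and 0.76 for Psmb3 (0.195 and 0.405), 0.87 and 0.66 for Psmd2 (0.2497 and 0.408) and 0.50 and 0.88 for Psmd14 (0.401 and 0.364). Without differentiation 1, 8 passed (the 4 and Psma3, Psma6, Psmb7 and Psmc6), where 18.7% of all RNAs tested passed in either direction. Without differentiation 2, Psmb3 and Psmd2 passed as higher and the activator Psme4 as lower (−0.70), where 14.2% of all RNAs passed.

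In the alpha ring, 1 of 7 RNAs rose and none fell, with changes from −0.22 to 1.75 and a median of 0.41. Psma8 had 15 and 18 counts in the controls against 24 and 73 in the differentiation libraries. Both differentiation libraries were above both controls, and differentiation 2 was far above the other three. On the scaled level (CPM, counts scaled to library size) this was 8.87 ± 0.274 against 29.5 ± 14.03 (mean ± SD, n = 2 each), a log2 change of 1.75 (SE 0.41, adjusted p = 0.0178). The call was lost without differentiation 2 (1.13) and over between-RNA pairs only (0.59, adjusted p = 0.613). The latter value rests only on its pairs with Gm42418 and Gm26917, of 10 and 9 counts in all.

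Psma7, the subunit whose place PSMA8 takes, had 13 and 15 control counts and 8 and 16 differentiation counts, all in pairs with RNAs that contact very many others. Its values overlapped between groups (7.54 ± 0.024 against 7.58 ± 1.49 CPM, log2 change 0.027, SE 0.50, adjusted p = 0.982). The ratio of Psma8 to Psma7 counts was 1.15 and 1.20 in the controls against 3.00 and 4.56 in the differentiation libraries, higher in both of the latter (exact two-sided permutation p = 0.33). From a list of 9 RNAs of differentiating and meiotic germ cells 6 were tested, with 5 changes above 0 and 1 below. Of these, 4 rose (Sycp1, Dmc1, Smc1b and Hormad1) and none fell, where 5.44% of all RNAs tested rose and 6.75% fell. Kit, Stra8, Sohlh1 and Sycp3 of the list did not pass or were too low to test. The summed level of the list was 147 and 140 CPM in the controls against 502 and 604 CPM in the differentiation libraries. Spo11 of that list had no listed pair. The part of this in the Psma8 result was not tested.

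The other alpha subunits did not pass. Psma6, with the most contacts of the ring, had 392 and 355 counts in the controls and 271 and 538 after differentiation, and its scaled levels overlapped (203 ± 33.9 against 256 ± 49.1 CPM, log2 change 0.34, SE 0.19, adjusted p = 0.276). Psma5 had 72, 50, 53 and 83 counts in the same order (33.4 ± 11.6 against 44.0 ± 1.12 CPM, 0.41, adjusted p = 0.410). Psma3 had a larger change on fewer counts, with 19 and 24 in the controls and 21 and 55 after differentiation (1.04, SE 0.39, adjusted p = 0.107); 89.9% of its counts joined it to pseudogenes or to a gene that contains one. Psma1 (0.69) and Psma4 (−0.22) had 21 and 22 counts in all.

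**Figure D2:**
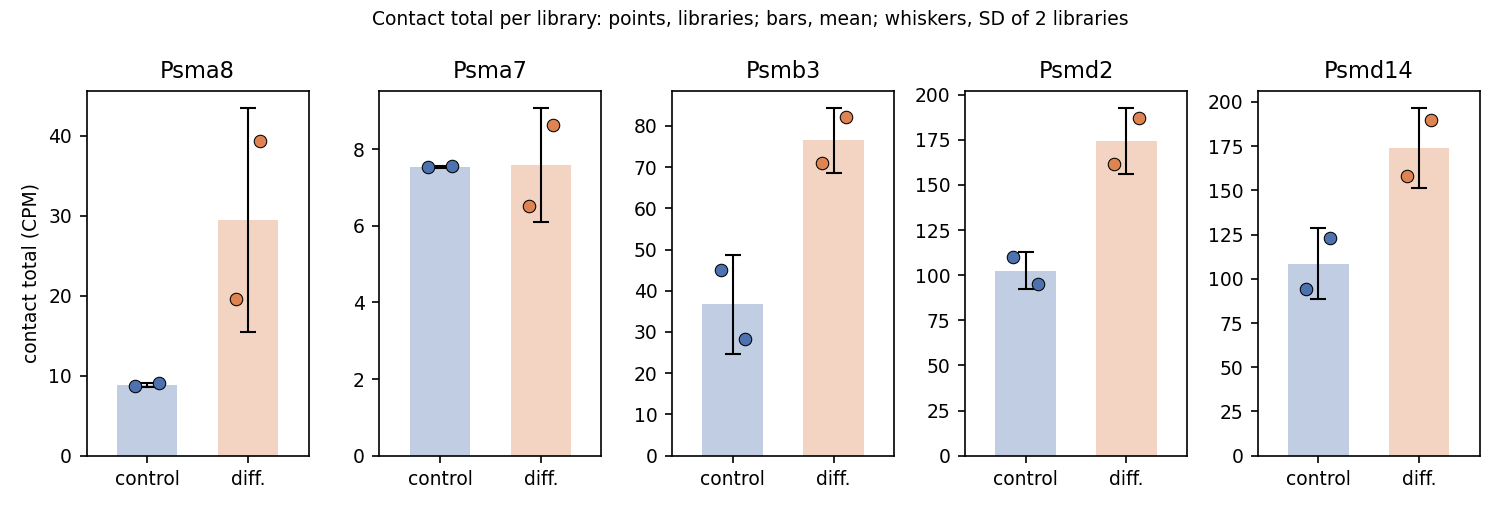
Contact total in CPM (vertical axes, each from 0) of the 4 RNAs that passed and of Psma7, in control and differentiation (diff.) libraries; points are libraries, bars means and whiskers the SD of 2 libraries. Psma8, Psmb3, Psmd2 and Psmd14 do not overlap between groups, and Psma7 does.

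In the beta ring, 1 of 7 RNAs rose and none fell (range −0.72 to 1.07, median 0.44). Psmb3, a subunit of the ring without a cutting site of its own, had 78 and 56 counts in the controls and 87 and 152 after differentiation. Both scaled differentiation levels were above both control levels, at 36.7 ± 11.97 against 76.5 ± 7.86 CPM (log2 change 1.07, SE 0.26, adjusted p = 0.0194). Of its counts 92.8% joined it to pseudogenes or to a gene that contains one. Without such pairs its change was 0.18 (adjusted p = 0.902). That value rests only on its pairs with Gm42418 and Slc9a9, of 15 and 12 counts in all, where a change is hard to detect.

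Psmb5, which carries the chymotrypsin-like site, and Psmb7, which carries the trypsin-like site, did not pass. Psmb7 had 314 and 357 control counts and 265 and 572 differentiation counts (181 ± 1.31 against 262 ± 65.6 CPM, 0.54, SE 0.19, adjusted p = 0.0854). Psmb5 had 54 and 49 against 58 and 80 counts (0.69, SE 0.27, adjusted p = 0.122). Neither overlapped between groups on the scaled level. Psmb1, another subunit without a cutting site, had the lowest change of the ring, with 27 and 34 control counts and 10 and 21 differentiation counts (−0.72, adjusted p = 0.281). Psmb6, which carries the caspase-like site, had a change of 0.11, Psmb2 of 0.44 and Psmb4 of 0.29, all with overlapping groups.

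None of the 6 ATPase RNAs of the 19S base passed (range −0.89 to 1.17, median 0.41, lowest adjusted p = 0.193). Psmc6 had 251 and 231 counts in the controls and 182 and 341 after differentiation (131 ± 20.4 against 166 ± 25.2 CPM, 0.35, SE 0.19, adjusted p = 0.263). Psmc1 had 51 and 58 against 39 and 67 counts (0.22, adjusted p = 0.665). Psmc3 had the lowest change of all 38 RNAs, with 29 and 29 counts in the controls and 10 and 16 after differentiation (15.7 ± 1.54 against 8.40 ± 0.342 CPM, −0.89, SE 0.41, adjusted p = 0.193). Its groups did not overlap, and all its counts joined it to RNAs that contact very many others. Psmc2, at the other end of the ring's range, had 7, 6, 12 and 12 counts (1.17, SE 0.58, adjusted p = 0.221). Psmc4 (0.58, 77 counts in all) and Psmc5 (0.46, 43 counts in all) did not pass either.

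Among the non-ATPase subunits of the base, 1 of 3 rose. Psmd2 had 190 and 189 counts in the controls and 198 and 347 after differentiation, and the scaled levels did not overlap (103 ± 10.4 against 174 ± 18.3 CPM). Its log2 change was 0.77 (SE 0.18, adjusted p = 0.0174), the lowest adjusted p among the 38 RNAs. Pairs with pseudogenes held 78.5% of its counts, and without them the change was 0.45 (adjusted p = 0.360). Without the pairs of the RNAs Gm42418, Gm26917, Neat1 and Malat1, which contact very many others, it was 0.74 (adjusted p = 0.0522) and no longer passed. Psmd1, the other large scaffold, had 240 and 232 against 153 and 305 counts, with overlapping groups (128 ± 15.6 against 145 ± 28.2 CPM, 0.19, adjusted p = 0.585). Psmd4, a ubiquitin receptor, had 22, 44, 17 and 25 counts (−0.36, adjusted p = 0.613).

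In the lid, 1 of 8 RNAs rose and none fell (range −0.75 to 0.84, median 0.27). Psmd14 had 163 and 244 counts in the controls and 194 and 352 after differentiation; on the scaled level the groups did not overlap (109 ± 20.2 against 174 ± 22.5 CPM, log2 change 0.68, SE 0.19, adjusted p = 0.0407). Within-RNA contacts held 76.8% of its counts, and over between-RNA pairs only its change was −0.064 (adjusted p = 0.904). The call was also lost without differentiation 2 (0.53, adjusted p = 0.0611), without a filter on low counts (0.65, adjusted p = 0.0541) and without the pairs of Gm42418, Gm26917, Neat1 and Malat1 (0.71, adjusted p = 0.0789). Psmd11, a structural subunit of the lid, had 229, 235, 198 and 297 counts (125 ± 9.99 against 161 ± 0.787 CPM, 0.36, SE 0.17, adjusted p = 0.201). Psmd8 had the lowest change of the lid, with 20 and 26 against 7 and 16 counts (−0.75, SE 0.46, adjusted p = 0.332). The other lid RNAs, Psmd3 (0.24), Psmd6 (0.84), Psmd7 (−0.18), Psmd12 (0.30) and Psmd13 (0.21), did not pass on 22 to 136 counts each.

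Promoter sequence is shown for Psmb3 and Psmd14, the RNAs called higher that have a CCAAT box, the site known for the factor NF-Y, in the RefSeq promoter table (GRCm38.p6). The table holds 31 of the 39 members, each from 250 bases before the gene start to 50 after. Psma8 is not among them and was not searched, while Psmd2 was searched and has no CCAAT box there. CCAAT on either strand was in 10 of these 31 (32.3%) and in 34.5% of all 27025 promoters. The core of the antioxidant response element, TGACNNNGC on either strand, which is the kind of site bound by the Nfe2l1 and Nfe2l2 proteins, was in 5 of 31 (16.1%: Psmb5, Psmb6, Psmc6, Psmd12 and Psmd9) and in 10.1% of all. None of those 5 RNAs passed the test of contact totals. Each line holds the 250 bases before the start, 5′ to 3′ on the gene's strand, with CCAAT or its reverse complement ATTGG in capitals. In Psmb3, which lies at 97703434 to 97713500 on chromosome 11, the capitals start 85 and 43 bases before the gene start. In Psmd14, which lies at 61711694 to 61800376 on chromosome 2, they start 159 bases before it, on the other strand. A match is a description of letters and not a measured site.
Psmb3 (chr11:97703184-97703433, + strand): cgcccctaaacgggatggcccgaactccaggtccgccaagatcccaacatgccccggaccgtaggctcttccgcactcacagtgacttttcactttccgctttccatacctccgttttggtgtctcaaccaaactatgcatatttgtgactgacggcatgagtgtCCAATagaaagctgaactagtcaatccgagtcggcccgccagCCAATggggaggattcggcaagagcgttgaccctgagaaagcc
Psmd14 (chr2:61711444-61711693, + strand): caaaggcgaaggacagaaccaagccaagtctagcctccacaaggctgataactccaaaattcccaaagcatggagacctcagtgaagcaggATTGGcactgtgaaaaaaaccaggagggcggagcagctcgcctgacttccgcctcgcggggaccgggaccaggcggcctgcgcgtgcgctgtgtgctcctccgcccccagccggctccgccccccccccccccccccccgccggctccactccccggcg

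The assembly factors and activators held no RNA that passed. The assembly chaperone Psmd5 had 51 and 64 control counts and 27 and 78 differentiation counts, which overlapped (0.085, SE 0.33, adjusted p = 0.907). The 4 activator RNAs had changes from −0.81 to 0.24. Psme4, which encodes PA200, an activator known for its part in sperm development, had 228 and 266 against 101 and 281 counts (133 ± 1.46 against 117 ± 49.03 CPM, −0.17, SE 0.25, adjusted p = 0.727); the differentiation libraries lay on either side of the controls. The PA28 gamma subunit Psme3 had 63, 69, 60 and 55 counts (0.12, adjusted p = 0.850), and the PA28 alpha subunit Psme1 8, 7, 3 and 4 (−0.81, SE 0.66, adjusted p = 0.472). The PA28 beta subunit Psme2 had 42, 35, 27 and 50 counts (0.24, adjusted p = 0.697). Psmb6-ps2 (17, 14, 14 and 27 counts, 0.64) and Psme2b (10, 14, 6 and 13 counts, −0.085) did not pass, and each was listed with 1 partner only, Psmb6 and Psme2. These were the only pairs of 2 different proteasome names in the table.

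Single pairs were tested next, and 5 of 90 tested proteasome pairs rose and none fell; over all 31688 pairs tested 2.85% rose and 2.40% fell (5.24% in either direction), so the share called, 5.56%, is close to the background. Of the 156 pairs, 66 were too low to test. Pairs were scaled separately from contact totals, so levels and changes of pairs cannot be set against those of totals. Without control 2 no pair of the whole table passed (0 of 35931 tested), so none of the proteasome did. Without control 1, 3 proteasome pairs passed, where 3.16% of all pairs did. Without differentiation 1, 12 passed as higher and 1 as lower (Psmd11 with Gm26917), where 6.13% of all pairs passed, and without differentiation 2 again 3, where 4.38% did. Pairs were sorted by partner, with classes set after names and values had been seen: 12 within-RNA pairs, 17 copy pairs (with a RefSeq pseudogene, with another proteasome name, or with the same 4 counts as such a pair), 113 hub pairs (with an RNA listed with at least 500 others), 8 with a gene within 2 Mb on the same chromosome, and 6 others. RNA from a gene and from its copy, or from overlapping genes, can be counted for either, and reads of a single RNA split between a gene and its copy cannot be told apart from joined RNAs.

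**Figure D3:**
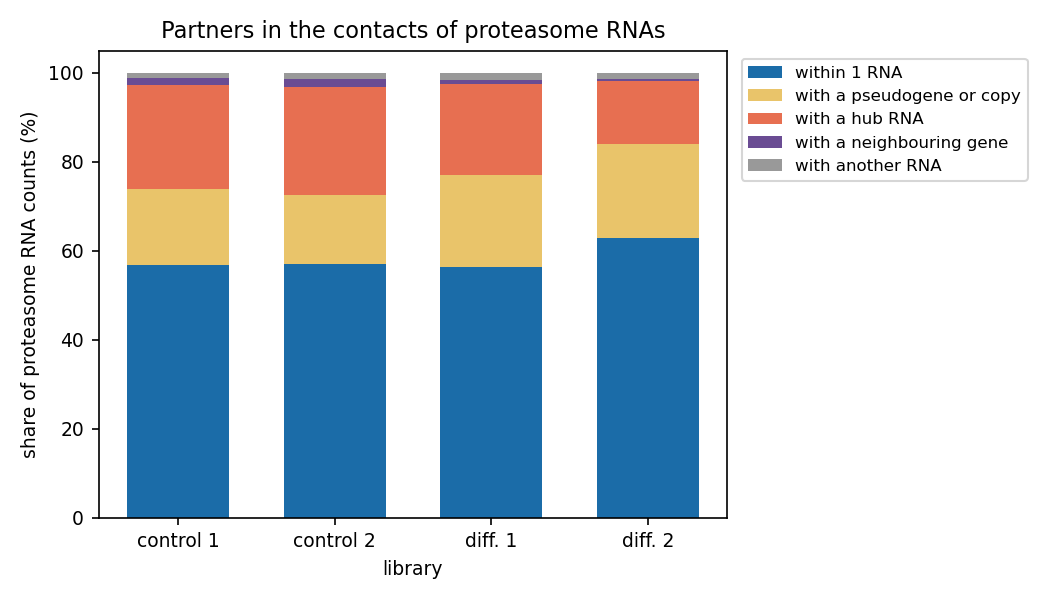
Share of the counts of all proteasome pairs (vertical axis, %) by kind of partner in each library (diff., differentiation). The hub share is 23.4% and 24.2% in the controls against 20.6% and 14.1% in the differentiation libraries.

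Within-RNA pairs were the largest class by counts, with 56.8% and 57.0% in the controls and 56.4% and 62.9% after differentiation, so the groups overlap (exact permutation p = 1.00). All 12 had a change above 0, with a median of 0.64, and 3 passed (25.0%). Over all within-RNA pairs tested the median was 0.44, 71.7% were above 0, and 12.3% rose and 3.33% fell. The pair within Psmd14 had 107 and 170 counts in the controls and 156 and 299 after differentiation (106 ± 22.5 against 254 ± 45.7 CPM, log2 change 1.26, SE 0.25, adjusted p = 0.00636). The pair within Psma8 had 11 and 13 against 19 and 68 counts (9.30 ± 0.039 against 46.1 ± 27.0 CPM, 2.33, SE 0.48, adjusted p = 0.0087). The pair within Psmb7 had 266 and 298 against 228 and 538 counts (219 ± 7.36 against 420 ± 135 CPM, 0.94, SE 0.23, adjusted p = 0.0247). In each of the 3 both differentiation levels were above both control levels, as in 2042 of all 4439 within-RNA pairs tested. Without differentiation 2 the pair within Psma8 was at 1.56 (adjusted p = 0.161) and that within Psmb7 at 0.59 (adjusted p = 0.141), and neither passed. Without control 1 the pairs within Psmd14 (1.03, adjusted p = 0.121) and Psmb7 (0.94, adjusted p = 0.129) did not pass, nor did they without the 4 hub RNAs Gm42418, Gm26917, Neat1 and Malat1 (1.03, adjusted p = 0.0549, and 0.72, adjusted p = 0.119). The counts within Psmd14 and within Psmb7 are the same without the 4 hub RNAs, and only the scaling and the fit over the smaller table differ there. The pair within Psmb7 also did not pass with scaling to column totals (0.80, adjusted p = 0.0551).

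The other large within-RNA pairs were those of Psma6 (385, 341, 266 and 523 counts, 0.63, adjusted p = 0.110), Psmc6 (240, 224, 178 and 333 counts, 0.66, adjusted p = 0.105), Psmd1 (178, 163, 112 and 256 counts, 0.61, adjusted p = 0.189), Psme4 (127, 191, 67 and 237 counts, 0.42, adjusted p = 0.509) and Psmd11 (104, 101, 83 and 117 counts, 0.52, adjusted p = 0.275). Of these 5 pairs, that within Psme4 overlapped between groups and the others did not. Over all 4439 within-RNA pairs tested, 2042 were higher without overlap and 623 lower, so this is common and not particular to these pairs. Over between-RNA pairs only, the totals of Psmb7 (−0.12), Psmc6 (−0.16), Psmd1 (−0.087) and Psmd14 (−0.064) had changes below 0 and Psme4 was at −0.74 (adjusted p = 0.0833), and none of these passed. Psma6 (0.35), Psma5 (0.67) and Psma8 (0.59) had changes above 0 and did not pass either. Psmb3 (1.25) and Psmd2 (0.94) passed there as in the full totals. Psma3 (1.23, adjusted p = 0.0283), Psmb5 (0.86, adjusted p = 0.0262) and Psmd11 (0.62, adjusted p = 0.0363) passed as higher there but not in the full totals. Psma3, Psmb3, Psmb5 and Psmd2 have no within-RNA pair, so their counts are the same in both settings. For these RNAs only the scaling and the fit over the smaller table differ. The difference between the 2 kinds of pair was not tested. The 12 genes with a within-RNA pair are longer, with a median span of 39.4 kb against 8.76 kb for the other 27. The same order holds over all 10820 protein-coding genes of the table matched to RefSeq, at 60.8 kb against 23.2 kb.

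Copy pairs held 17.1% and 15.6% of the counts in the controls and 20.7% and 21.2% after differentiation (16.3% ± 1.07 against 20.9% ± 0.399, exact permutation p = 0.33). Of 16 tested, all had a change above 0, with a median of 0.96, and 2 rose (12.5%); over all 17, without a filter on low counts, 16 were above 0 and the median was 0.87. Pairs with a RefSeq pseudogene did the same throughout the table: of 712 tested outside hub pairs, 91.3% had a change above 0, the median was 0.91, 12.6% rose and 0.00% fell. The median and the share called of the proteasome copy pairs thus lie near those of pseudogene pairs in general. As a description, 10 of the 38 protein-coding proteasome RNAs (26.3%) were listed with a RefSeq pseudogene other than Gm42418, against 6.76% of the 10820 protein-coding RNAs.

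The largest copy pair joined Psmd2 to Gm5422, a pseudogene on chromosome 10 at 31248137 to 31251043 (GRCm38.p6), with 153 and 132 counts in the controls and 153 and 287 after differentiation. The scaled levels did not overlap (112 ± 24.2 against 246 ± 40.6 CPM, log2 change 1.14, SE 0.25, adjusted p = 0.0115). Psmd2 itself lies on chromosome 16 at 20651122 to 20663414. Psmb3 with the pseudogene Gm4950 had 28 and 22 against 39 and 67 counts (19.7 ± 5.53 against 59.8 ± 6.18 CPM, 1.61, SE 0.37, adjusted p = 0.0167), also without overlap. For these 2 pairs this is the common state, since 484 of the 712 pseudogene pairs tested were higher without overlap and 20 lower. Without the 4 hub RNAs named above neither passed (0.94, adjusted p = 0.0543, and 1.40, adjusted p = 0.0629). Neither pair holds a hub RNA, so their counts are unchanged there. Only the scaling and the fit over the smaller table differ. Psmd11 with Gm14048 (87, 94, 74 and 152 counts, 0.84, SE 0.27, adjusted p = 0.0830) and Psmb5 with Gm3375 (53, 48, 57 and 79 counts, 0.99, SE 0.31, adjusted p = 0.0767) did not pass. Gm3375 held 98.3% of all Psmb5 counts, since the only other Psmb5 pair, with the hub RNA Gm42418, had 4 counts in all. On nearly the same counts the change was 0.69 for the Psmb5 total and 0.99 for this pair, since totals and pairs were scaled separately.

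Some copy pairs carry the same counts as another. Psmb3 with Gm6467 and Psmb3 with Map3k13, the kinase gene that contains Gm6467, both had 18, 13, 19 and 36 counts (1.34, adjusted p = 0.0989). Psma3 with Gm13835 and with Lncpint, the long noncoding RNA gene that contains it, both had 7, 7, 7 and 23 counts (1.58, adjusted p = 0.142). Psme2 with Psme2b and with Gm12185, whose genes lie 18.2 kb apart, both had 10, 14, 6 and 13 counts (0.20, adjusted p = 0.896). Keeping 1 of each such set left the same 4 contact totals called.

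**Figure D4:**
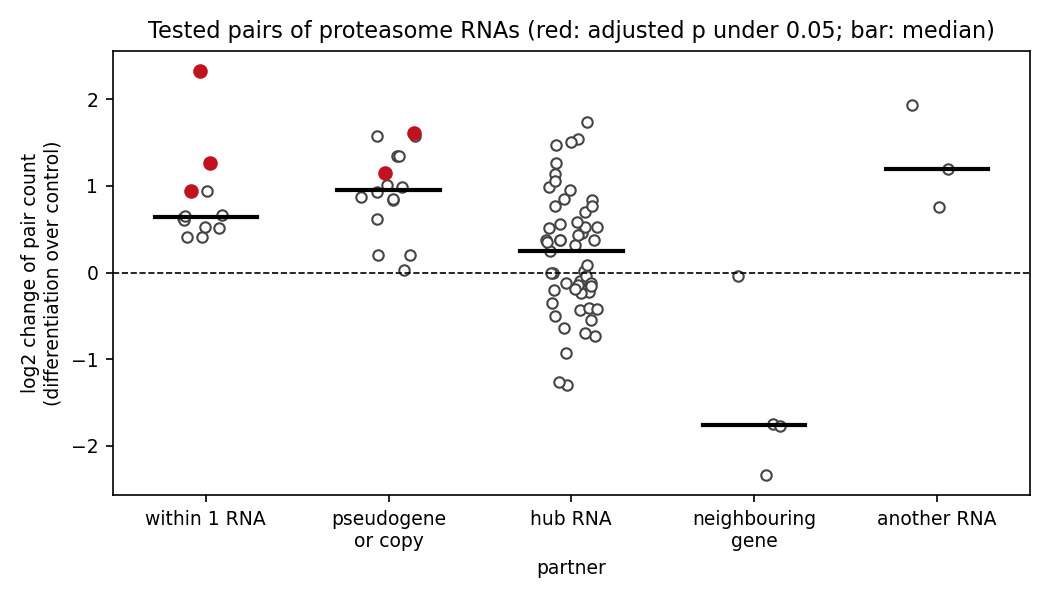
Log2 change (differentiation over control, vertical axis) of each of the 90 tested pairs by kind of partner; red points have an adjusted p under 0.05 and bars are medians. The medians over these tested pairs are 0.64 within 1 RNA, 0.96 with a pseudogene or copy, 0.25 with a hub RNA and −1.76 with a neighbouring gene; over all listed pairs, without a filter on low counts, they are 0.58, 0.87, 0.082 and −0.38.

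Hub RNAs were the partners with the broadest reach, and 36 of the 39 RNAs had at least 1 hub pair. For 22 of the 39, all listed pairs were hub or within-RNA pairs. Gm42418, which overlaps ribosomal RNA sequence, was listed with 32 proteasome RNAs (845 counts), the sodium-proton exchanger RNA Slc9a9 with 28 (553 counts) and Gm26917, which also overlaps ribosomal RNA sequence, with 25 (646 counts). In the whole table these 3 were listed with 63.2%, 58.8% and 56.9% of all RNAs. None of 55 tested hub pairs passed; over all 22621 hub pairs tested 0.623% rose and 2.49% fell. At an unadjusted p under 0.05 there were 3 (16.0% over all hub pairs), all higher, and DESeq2 called 0. Their median was 0.25, with 30 above 0 and 25 below, and −0.10 over all hub pairs tested. Over all 113 proteasome hub pairs, without a filter on low counts, it was 0.082, with 60 above 0 and 53 below.

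The share of proteasome counts in hub pairs was lower in both differentiation libraries, at 23.8% ± 0.567 against 17.3% ± 4.59 (exact permutation p = 0.33). As a share of all counts of a library, the same pairs held 0.0538% and 0.0499% in the controls and 0.0567% and 0.0494% after differentiation (651, 698, 450 and 571 counts), and the groups overlapped (exact permutation p = 1.00). The nuclear long noncoding RNA Malat1 held 1.30% and 1.67% of proteasome counts in the controls and 0.731% and 0.518% after differentiation. Over the whole table it held 2.59% and 3.09% against 1.57% and 1.38% of the counts, so this was lower in both differentiation libraries as well. Psmd2 with Slc9a9 was the hub pair with the lowest adjusted p, with 8 and 7 counts in the controls and 13 and 17 after differentiation (1.55, SE 0.57, adjusted p = 0.124).

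Pairs with a neighbouring gene were few. They held 1.55% and 1.91% of proteasome counts in the controls and 0.823% and 0.468% after differentiation (exact permutation p = 0.33). Without a filter on low counts the 8 pairs had a median change of −0.38, with 1 above 0 and 7 below. The 4 tested had a median of −1.76, and none passed. The pairs with Asb3, Nek6 and Armc9 passed the filter on low counts through the controls, where they are high, so the 4 tested are described only and support no direction for neighbour pairs. With more pairs past the filter the median was −0.62 over 7 pairs without differentiation 1 and −0.88 over 7 without differentiation 2. At an unadjusted p under 0.05 there were 3 of the 4 (25.2% over the neighbour pairs of the whole table); over all 845 of these the median was −0.18, 44.5% were above 0, 3.55% rose and 1.89% fell. Psme4 with Asb3, a ubiquitin ligase adaptor gene 73.2 kb away, had 9 and 12 control counts against 3 and 1 (adjusted p = 0.219). The ratio of control over differentiation, per total count, was 3.92 with a 95% counting interval of 1.32 to 15.7. Psmb7 with the kinase gene Nek6, 0.556 kb away, had 7 and 9 against 2 and 1 counts, a ratio of 3.98 (interval 1.14 to 21.3; adjusted p = 0.238). Psmd1 with Armc9, 15.4 kb away, had 10 and 6 against 1 and 1 counts, a ratio of 5.98 (interval 1.41 to 53.6; adjusted p = 0.152). The fourth, Psmd14 with Baz2b 1502 kb away, had 2, 7, 1 and 5 counts (−0.033). These rest on 2 to 6 differentiation counts, near the fewest a listed pair can have, and the intervals cover counting error only.

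Of the other partners, Psmd13, a lid subunit, held 61.0% of its counts in such pairs, mostly with Dnaja1, an Hsp40 chaperone gene on another chromosome (17, 14, 10 and 27 counts, 0.76, adjusted p = 0.431). Psmb7 was listed with Msn, which encodes the membrane linker moesin (5, 13, 15 and 12 counts, 1.20, adjusted p = 0.271), and Psmd2 with the myosin gene Myh9 (2, 2, 4 and 7 counts, 1.94, adjusted p = 0.173). All 3 tested pairs of this kind had changes above 0. The pair with Myh9 passed the filter on low counts through the differentiation libraries, where it is high, so the 3 tested are described only. Without that filter all 6 pairs of this kind had changes above 0, with a median of 0.69, and none passed.

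Other RNAs of the ubiquitin-proteasome pathway, from a list of 38 names of proteasome assembly chaperones, associated receptors and enzymes, ubiquitin genes, activating enzymes and transcription factors, did not pass: 0 of 28 tested rose or fell. Over all RNAs tested 12.2% passed in either direction. At an unadjusted p under 0.05 there were 2 (27.0% over all RNAs), 1 in each direction. DESeq2 called 0 (9.75% over all RNAs), and the median was 0.027 with 15 above 0 and 13 below. Vcp, the unfolding ATPase that feeds substrates to the proteasome, had 247 and 347 counts in the controls and 227 and 510 after differentiation (159 ± 22.5 against 230 ± 63.8 CPM, 0.54, SE 0.21, adjusted p = 0.118). Nfe2l2, a transcription factor of the oxidative stress response, had 280 and 292 against 136 and 227 counts (155 ± 10.6 against 117 ± 8.24 CPM, −0.40, SE 0.17, adjusted p = 0.164). Without differentiation 1 the changes were 0.83 for Vcp, 0.69 for the ubiquilin gene Ubqln1 and 1.04 for the F-box gene Fbxo7. The median of the list was −0.013 there.

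Markers of other cells moved with the groups too, where over all RNAs tested 5.44% rose and 6.75% fell. Of 8 tested Sertoli cell markers 6 were lower after differentiation (Wt1, Gata4, Clu, Inha, Cldn11 and Kitl), and the summed level of the list was 1238 and 1417 CPM in the controls against 749 and 730 CPM in the differentiation libraries; Amh and Rhox5 had no listed pair. Of 9 tested fibroblast markers 4 were lower and 1 higher, with sums of 1652 to 1814 CPM and 1586 to 1722 CPM. Of 7 tested markers of undifferentiated spermatogonia 1 was lower (Gfra1) and none higher. The list was split, with 3 changes above 0 and 4 below (−1.30 to 0.88). Its sums were 226 and 264 against 132 and 149 CPM, and Nanos2, Id4 and Lin28a had no listed pair. Of the immune list 1 marker could be tested and of the Leydig and peritubular list 4, and none passed. The tested immune marker was at 4.63 and 10.1 CPM in the controls against 45.7 and 2.16 CPM in the differentiation libraries, so it was high in differentiation 1 only. The part of these cell types in the contacts of proteasome RNAs was not tested.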

How the data were processed

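RIC-seq counts of 2 control and 2 differentiation libraries were used. The deposited counts are whole chimeric reads per RNA pair and library, not normalized; how the authors called chimeric reads and treated duplicates or overlapping genes is not given in the sources used here. Per the labels' protocols, RNA was cut with micrococcal nuclease, tagged with pCp-biotin, joined in place and broken to about 90 nt. Per the submitters' processing notes, the names given are STAR and GRCm38, without versions. Names were matched to RefSeq (GRCm38.p6) for position and class, and all 39 members matched by symbol.

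Counts were summed per RNA (within-RNA pairs once, so that a count between RNAs is in both totals, which are not independent). The test was edgeR's two-sided quasi-likelihood F test (edgeR 4.0.16, R 4.3.3) on totals and on pairs, with TMM scaling and filterByExpr (minimum count 5, minimum total 10), and Benjamini-Hochberg adjustment over the whole table at 0.05. Levels are edgeR's CPM from those scaled counts. Totals and pairs were scaled separately. The TMM factors of control 1, control 2, differentiation 1 and differentiation 2 were 0.949, 0.944, 1.02 and 1.09 for totals. For pairs they were 1.04, 1.06, 0.949 and 0.957. Levels and changes of a pair are therefore not on the scale of those of a total. Shares of counts were compared with exact permutation tests. Depth limits precision: the biological coefficient of variation was 18.7% for totals and 24.9% for pairs. On simulated data with 4-fold changes 84.0% of changed totals and 75.3% of changed pairs were recovered. Only rows with a mean count of at least 10 per library were changed, and the simulated spread was below that found for pairs. The median proteasome pair held 19 counts over all libraries together, below that range, so recovery of such pairs was not tested. The mean CPM of the called totals differed by less than 4-fold, from 1.60-fold for Psmd14 to 3.32-fold for Psma8. Recovery at those smaller sizes was not tested.

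The name rule takes members without regard to their values, but this group of RNAs and the lists were chosen with earlier results of these data known. The RNAs named are those called, the 2 with most counts per role, the extreme changes and the lowest total, with called, largest and member-member pairs and the 5 partners with most counts; Psma3, Psma7, Psmb1, Psmb5, Psmd8, Psme1, other members given in passing, neighbour pairs, Psmd2 with Slc9a9, and the pairs with Dnaja1, Msn and Myh9 were added with their values in view. A single pathway RNA that the rule names is not reported here. The alternatives tried were RLE scaling, column totals, no filter, the default filter (minimum count 10, minimum total 15), DESeq2 1.42.0, an adjusted p under 0.1, replicate number as a block, each library left out (a lone library was taken to vary as the other group does), only pairs between RNAs, and no pairs of Gm42418, Gm26917, Neat1 and Malat1. Leaving out copy pairs and keeping 1 of each set of pairs with the same counts were chosen after seeing the data.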

Additional observations from a re-analysis of the deposited data

How the results depend on the processing

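The count of 4 higher proteasome totals was 3 to 5 with RLE scaling, column totals, no filter, the default filter, DESeq2, an adjusted p under 0.1, the replicate block (5), between-RNA pairs only (5) and 1 of each set of identical pairs. It was 2 without the pairs of Gm42418, Gm26917, Neat1 and Malat1, 2 without copy pairs and 0 to 8 with 1 library left out; the count lower was 0 to 1. The count of 5 higher pairs was 4 or 5 with the same settings apart from 2 over between-RNA pairs only, where within-RNA pairs are gone, 1 without the 4 hub RNAs, 3 without copy pairs, 9 at an adjusted p under 0.1 and 0 to 12 with 1 library left out (lower, 0 to 1). Pathway RNAs called higher were 0 in most settings, 1 with the replicate block, 1 over between-RNA pairs only (Vcp in both) and 0 to 3 with 1 library left out. Whether same-numbered libraries are paired is not given in the sources used here. Their deviations correlated at 0.14 for totals and 0.02 for pairs, which cannot settle it, since only 2 numbers exist. With the replicate block, calls over the whole table went from 1340 to 1919 for totals and from 1662 to 2434 for pairs. Column totals moved the median of all RNAs to 0.16 and of proteasome RNAs to 0.44. The share of all RNAs called in either direction moved with the setting. It was 9.75% with DESeq2, 15.1% with the default filter and 17.5% with the replicate block. It was 13% over between-RNA pairs only, 8.36% without the 4 hub RNAs and 12.1% without copy pairs. Of all pairs, 12.1% passed with the default filter, 7.68% with the replicate block and 3.02% without the 4 hub RNAs. The counts called are thus not a result about proteasome RNAs. The share of library counts differed by 0.0957 percentage points, and by 0.0581 to 0.133 with 1 library left out. The share in within-RNA pairs differed by 2.72 points, by −0.56 to 5.99 with 1 library left out (below 0 without differentiation 2), and by −0.66 without the 4 hub RNAs.

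Changes that turned sign, of RNAs or pairs that did not pass except Psmd14, were these. Over between-RNA pairs only they were Psmb7 −0.12, Psmc6 −0.16, Psmd1 −0.087, Psmd14 −0.064, Psmd5 −0.085 and Psme2b 0.091. Without the 4 hub RNAs they were Psmd5 −0.069 and Psme2b with Psme2 −0.017, and without copy pairs Psmc1 −0.050. With no filter Psma7 was at −0.0043, and with column totals Psme4 was at 0.0046 and Psme2b at 0.081. With 1 library left out the change ran from −0.21 to 0.23 for Psma7, −0.041 to 0.40 for Psmd1, −0.50 to 0.48 for Psmd5, −0.22 to 0.45 for Psme3, −0.70 to 0.23 for Psme4 and −0.40 to 0.16 for Psme2b. For the pairs within Psme4 and Psmd5 and of Psme2b with Psme2 it ran from −0.33 to 0.92, −0.24 to 0.85 and −0.090 to 0.45. In each of these 9 the ends are the values without differentiation 1 and without differentiation 2. The counts of Psme2b are unchanged over between-RNA pairs only, as are those of Psme2b with Psme2 without the 4 hub RNAs. There only the scaling and the fit over the smaller table differ. Apart from these and from the pairs removed by construction, the cause was not tested. Of the 8 neighbour pairs 4 were too low to test, so a change there was not detectable at this depth.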
